A study of Mus musculus with 4 samples.

Results

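Neto1, Syt1, Elavl2, Gria2 and Gap43 are 5 genes best known from neurons whose mRNA was followed here in the mesenchyme of the fetal mouse penis, in cells without a single transcript of Sox10 or Elavl4. They are 5 of the 32285 Ensembl genes counted in the series, and they were picked because they had been seen at a higher level in mesenchyme of ablated penises in these same libraries. Their levels and fold changes between genotypes are therefore a description and carry no p-value. The libraries, made with the 10x Genomics 3' chemistry, came from dissociated penises of male mouse embryos at embryonic day 16.5. DTA- animals (Nr5a1cre- x DTA f/+) carried the floxed diphtheria toxin allele at the Rosa locus without the Cre transgene, and DTA+ animals (Nr5a1cre+ x DTA f/+) carried the same allele and Nr5a1-Cre, so that toxin is made in cells that have expressed Nr5a1 and in their progeny. By the study's methods the ablated mice also carried a Cre-dependent tdTomato reporter. The comparison asks which transcripts differ in the cells that remain after ablation of the Nr5a1 lineage. By the study's cell counts the ablation removed most labelled cells and not all. The same transgene is active in testes and adrenals, which the study describes as reduced and lost in ablated embryos, so a local effect and a change in hormones cannot be told apart in this design. There were 2 samples per genotype, and the labels do not say whether a sample is 1 embryo or a pool.

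Of 11343 to 12580 deposited cells per sample, 6573 to 8810 had more than 1000 and fewer than 7500 UMIs (unique molecular identifiers, each marking a captured mRNA molecule) and passed limits on mitochondrial and hemoglobin transcripts. Median UMIs per kept cell were 4700 and 4077 in DTA- replicates 1 and 2 and 3551 and 3560 in DTA+ replicates 1 and 2, an order kept for all pairs of values below. Cells were grouped without the members into 14 mesenchymal sites named by marker genes, with 5823, 6916, 7008 and 8255 cells used per sample, and each site had at least 20 cells in each sample. Between 37 and 79 mesenchymal cells per sample were left out for a UMI of Sox10, a factor of glia and neural crest, or of Elavl4, an RNA-binding protein of neurons. tdTomato had 0 UMIs in both DTA- libraries and 3579 and 3140 in the DTA+ libraries, which separates the libraries as labelled, while Nr5a1 itself had 1 or 2 UMIs in each library. Any 2 libraries shared between 31 and 48 cell barcodes. UMIs were summed per site and sample and are given as CPM, edgeR's counts scaled to a common library total with TMM factors, and fold changes are edgeR's log2 fold changes of DTA+ over DTA-.

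In neurons, glutamate opens AMPA and kainate receptors in the membrane of the receiving cell, and auxiliary proteins such as Neto1 set how those receptors gate. On the sending side, calcium entering the terminal binds Syt1, which triggers fusion of synaptic vesicles. Growing axons meanwhile carry Gap43 at the membrane of the growth cone, and RNA-binding proteins of the Elav family, Elavl2 among them, stabilise and splice neuronal transcripts. Fetal genital mesenchyme is made of fibroblast-like cells rich in collagen transcripts, and Col1a1 was abundant in the cells used here.

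The 5 genes lie on different chromosomes (GRCm38, GENCODE annotation). Gria2 (ENSMUSG00000033981) spans chr3:80681450-80802835 on the minus strand, Elavl2 (ENSMUSG00000008489) chr4:91250763-91400785 on the minus strand, and Syt1 (ENSMUSG00000035864) chr10:108497650-109010982 on the minus strand. Gap43 (ENSMUSG00000047261) spans chr16:42248442-42340651 on the minus strand, and Neto1 is ENSMUSG00000050321.

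RefSeq promoter windows of build GRCm38.p6, running from 250 bases before to 50 bases after an annotated start, were at hand for Syt1, Elavl2 and Gria2. They are shown, as the 3 members of which a start site can be printed, with every CG dinucleotide in capitals, from chr10:109010926-109011225, chr4:91399935-91400234 and chr3:80802786-80803085, each read 5' to 3' on the minus strand.
Syt1: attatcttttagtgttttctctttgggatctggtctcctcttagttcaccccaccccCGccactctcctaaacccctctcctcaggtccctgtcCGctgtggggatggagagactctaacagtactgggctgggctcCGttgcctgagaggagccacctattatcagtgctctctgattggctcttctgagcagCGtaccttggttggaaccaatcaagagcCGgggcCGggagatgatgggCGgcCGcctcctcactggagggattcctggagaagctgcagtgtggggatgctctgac
Elavl2: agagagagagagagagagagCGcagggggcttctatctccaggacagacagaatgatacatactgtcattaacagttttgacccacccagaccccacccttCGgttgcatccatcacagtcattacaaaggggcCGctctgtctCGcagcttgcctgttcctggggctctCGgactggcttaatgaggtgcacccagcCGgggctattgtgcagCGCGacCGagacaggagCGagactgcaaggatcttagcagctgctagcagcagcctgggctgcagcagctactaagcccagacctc
Gria2: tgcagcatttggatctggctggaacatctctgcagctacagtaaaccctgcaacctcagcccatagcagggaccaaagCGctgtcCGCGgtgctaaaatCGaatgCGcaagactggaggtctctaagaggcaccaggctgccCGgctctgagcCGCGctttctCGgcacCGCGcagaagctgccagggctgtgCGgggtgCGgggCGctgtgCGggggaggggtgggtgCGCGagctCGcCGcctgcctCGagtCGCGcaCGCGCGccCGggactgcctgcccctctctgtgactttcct
The Gria2 window holds 26 CG dinucleotides, more than 83.1% of the 32851 RefSeq promoter windows of mouse do, and is 65.7% G and C. The medians over all windows are 7 CG and 52.7% G and C. The Elavl2 window shown, one of its 6, has 10 CG, and the Syt1 window shown, one of its 2, has 8. Short elements were sought as exact letters only. Looser forms of an element are missed in this way, and the absence of rare letters from few windows says little. Over the 9 windows of these 3 genes, none held, on either strand, the letters TTCAGCACC, the left part of the RE1 element bound by the repressor REST, which 0.371% of all windows hold. The letters AGAACA, common to steroid hormone response elements (in 6233 of all windows), TATAAA of the TATA box (13.6%) and the E-box CAGATG (17.2%) were likewise not found in them, nor were the right part of RE1 and the full hormone response element, which contains AGAACA.

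**Figure D1:**
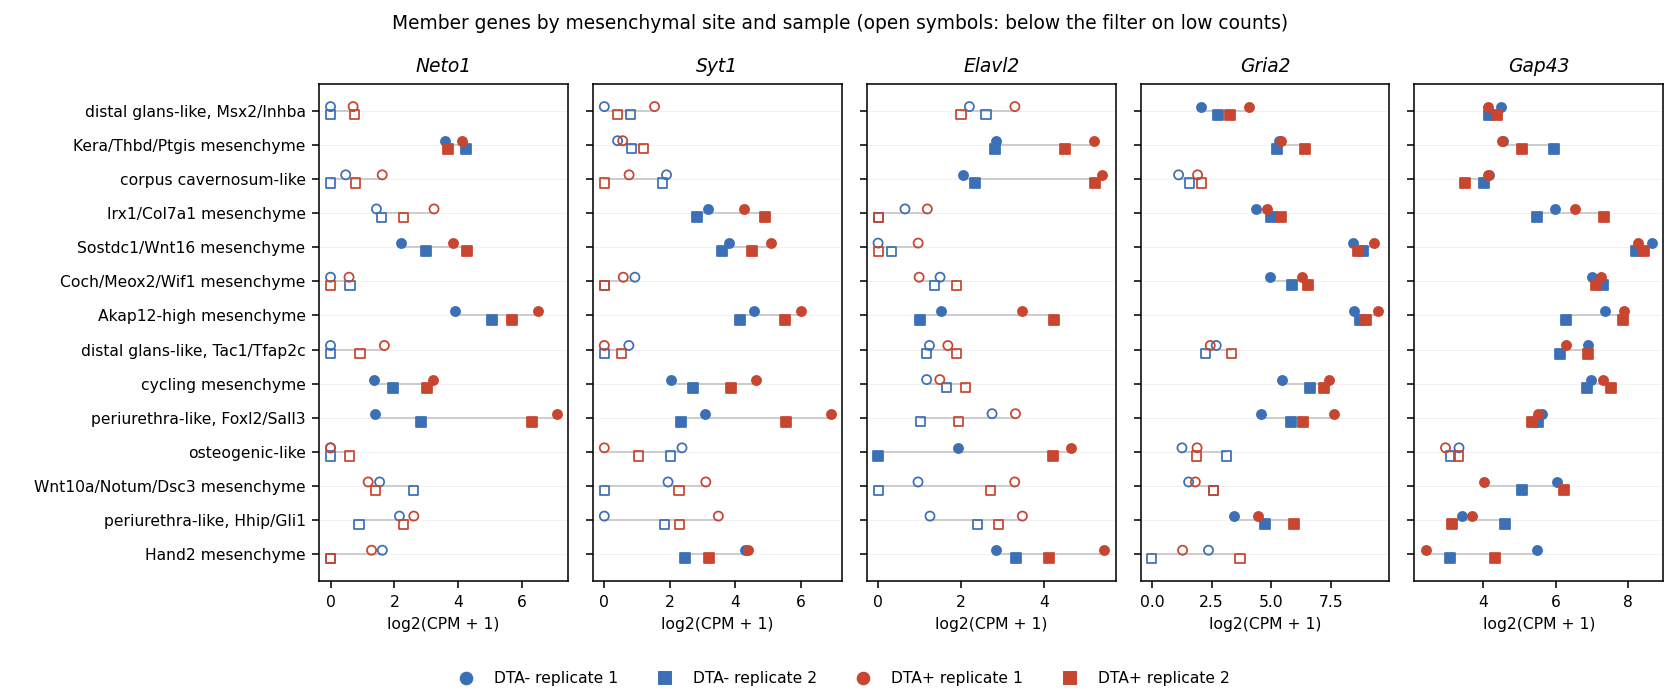
Levels of the 5 genes in the 14 mesenchymal sites, as log2(CPM + 1) on the x axis, with circles for replicate 1, squares for replicate 2, blue for DTA- and red for DTA+; open symbols mark genes below the filter on low counts. Neto1 and Syt1 of DTA+ stand farthest from DTA- in the Foxl2/Sall3 site, Elavl2 in the corpus cavernosum-like site, and the Gap43 symbols mix in most rows.

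Neto1, an auxiliary subunit of kainate receptors that also binds NMDA receptors, differed most in the periurethra-like site marked by Foxl2 and Sall3, the mesenchyme beside the urethra. There it was read at 1.64 and 6.13 CPM in DTA- and at 134.5 and 77.8 CPM in DTA+. Both DTA+ samples lay above both DTA- samples, an order that 23.9% of all genes tested in the site had, with a fitted log2 fold change of 4.82. The control values rest on 2 and 6 UMIs, the DTA+ values on 195 and 136, and the log2 fold change was 4.08 without DTA- replicate 1 and 5.93 without DTA- replicate 2. In control penises the mean was highest elsewhere, in the mesenchyme with high Akap12, whose samples overlapped with those of Kera/Thbd/Ptgis mesenchyme. The Akap12-high site was made of 3 clusters drawn unevenly from the genotypes. In that site the values were 13.8 and 32.5 CPM in DTA- and 89.5 and 50.6 CPM in DTA+. The genotypes were again apart (log2 fold change 1.51, with 24.3% of all genes there in this order, and 2.33 without DTA- replicate 2 or 1.06 without DTA+ replicate 1), and DTA+ replicate 1 was the higher of the ablated samples in both sites.

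Neto1 was also apart between genotypes at much lower levels in Sostdc1/Wnt16 mesenchyme, with 3.59 and 6.89 CPM in DTA- against 13.4 and 18.4 CPM in DTA+ (log2 fold change 1.55). Cycling mesenchyme had 1.57 and 2.88 CPM against 8.15 and 7.06 CPM (1.71). Kera/Thbd/Ptgis mesenchyme, the second highest site in controls at 14.5 ± 4.88 CPM (SD, n = 2), did not follow. Its values were 11.1 and 17.96 CPM in DTA- and 16.2 and 11.8 CPM in DTA+, which overlap. The other 9 sites were under edgeR's filter on low counts for Neto1, with no value above 8.45 CPM. By their means, the order of the sites differed between genotypes: the Foxl2/Sall3 site was 4th of 14 in controls, where its samples were not apart from the next site, and 1st in DTA+, where it overlapped with Akap12-high mesenchyme.

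Gria2, the subunit that makes AMPA receptors poorly permeable to calcium, had far more UMIs than Neto1 and was already high in control mesenchyme. Sostdc1/Wnt16 mesenchyme had 341 and 451 CPM in DTA- and 625 and 391 CPM in DTA+, and Akap12-high mesenchyme 349.6 and 412 CPM against 702 and 497 CPM. The genotypes overlapped in the former and were apart in the latter (log2 fold change 0.65). These 2 sites were not apart from each other in controls, and both were apart from the next, cycling mesenchyme. As with Neto1, the largest log2 fold change among sites that passed the filter was in the Foxl2/Sall3 periurethra-like site. The values there were 22.9 and 55.2 CPM in DTA- against 194.5 and 79.5 CPM in DTA+ (1.83, and 1.07 without DTA+ replicate 1 or 2.56 without DTA- replicate 2). Cycling mesenchyme had 42.6 and 95.8 CPM against 167.5 and 147 CPM (1.17), and Coch/Meox2/Wif1 mesenchyme 29.6 and 57.0 CPM against 77.0 and 91.8 CPM (0.97). In both, each DTA+ sample exceeded each DTA- sample. Kera/Thbd/Ptgis mesenchyme was just apart, at 39.0 and 36.3 CPM against 41.5 and 82.4 CPM. Over all mesenchyme the Gria2 values overlapped, with 76.3 and 149 CPM in DTA- and 205 and 145 CPM in DTA+, as they did in 3 of the 9 sites where Gria2 passed the filter. The other 2 of those 3 were Irx1/Col7a1 mesenchyme, at 19.4 and 30.7 CPM against 26.9 and 40.6 CPM, and the Hhip/Gli1 periurethra-like site, at 9.69 and 25.7 CPM against 20.4 and 60.3 CPM. Described as a gene raised in ablated mesenchyme, Gria2 had both DTA+ samples above in 6 of those 9 sites and not in the tissue summed. Of all gene and site pairs tested, 22.7% had this order, and nothing is read from the count of a chosen gene.

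Syt1, the calcium sensor of synaptic vesicle release, followed Neto1 in the periurethra-like Foxl2/Sall3 site. Its values were 7.37 and 4.09 CPM in DTA- and 119 and 45.7 CPM in DTA+ (log2 fold change 3.77, and 2.95 without DTA+ replicate 1), with DTA+ replicate 1 the highest and no overlap. Akap12-high mesenchyme, the site with the highest control mean, had 22.6 and 16.5 CPM, a range that holds the higher Hand2 control below, against 63.2 and 45.1 CPM (1.499). Irx1/Col7a1 mesenchyme had 7.97 and 6.15 CPM against 18.4 and 29.0 CPM (1.71), Sostdc1/Wnt16 mesenchyme 13.2 and 10.97 CPM against 33.4 and 21.9 CPM (1.18), and cycling mesenchyme 3.14 and 5.52 CPM against 23.99 and 13.7 CPM (2.07). All DTA+ samples of these sites exceeded the DTA- samples. In Hand2 mesenchyme Syt1 overlapped between genotypes, with 18.7 and 4.50 CPM in DTA- and 20.1 and 8.21 CPM in DTA+. Syt1 was under the filter in the remaining 8 sites. In the corpus cavernosum-like and osteogenic-like sites its few UMIs ran the other way, with 7 and 6 UMIs in DTA- against 2 and 0 in DTA+, and 6 and 2 against 0 and 2.

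Elavl2, an RNA-binding protein of the neuronal Elav family, had a pattern of its own. In DTA+ its mean was highest in the corpus cavernosum-like site, the erectile body of the penis, where the samples overlapped with those of Hand2 mesenchyme. The values there were 3.12 and 4.03 CPM in DTA- and 41.0 and 36.9 CPM in DTA+. The 2 samples of each genotype were close to each other and the genotypes far apart (log2 fold change 3.43, with 26.2% of all genes there in this order). Osteogenic-like mesenchyme had 2.79 and 0 CPM against 24.35 and 17.75 CPM (3.33), from 4 and 0 UMIs against 18 and 34. Kera/Thbd/Ptgis mesenchyme had 6.18 and 6.11 CPM against 36.2 and 21.9 CPM (2.23), Hand2 mesenchyme 6.24 and 8.99 CPM against 43.1 and 16.4 CPM (1.80), and Akap12-high mesenchyme 1.85 and 1.02 CPM against 10.2 and 18.1 CPM (3.40). None of these sites had overlapping genotypes. In the Foxl2/Sall3 site, where Neto1 and Syt1 differed most, Elavl2 was under the filter and overlapped, with 5.74 and 1.02 CPM against 8.97 and 2.86 CPM. In the corpus cavernosum-like site, in turn, Neto1 and Syt1 stayed at or under 2.73 CPM in each sample.

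Gap43, the growth cone protein that gave 2647 to 3492 UMIs per sample over all mesenchyme, was the member least like its name as a raised gene. It passed the filter in 13 of 14 sites and overlapped between genotypes in 9 of them. Sostdc1/Wnt16 mesenchyme, its highest site and apart from the next one in controls, had 402 and 297 CPM in DTA- and 308 and 345 CPM in DTA+. The genotypes were apart with DTA+ above in 3 of the 13 sites, an order that 22.7% of all gene and site pairs tested had. Irx1/Col7a1 mesenchyme had 62.05 and 44.1 CPM against 92.2 and 159 CPM (log2 fold change 1.24), Akap12-high mesenchyme 162 and 77.0 CPM against 234 and 233 CPM (0.98, and 1.60 without DTA- replicate 1 or 0.52 without DTA- replicate 2), and cycling mesenchyme 123.5 and 115 CPM against 158.5 and 182 CPM (0.52). In the Foxl2/Sall3 site both DTA+ samples lay just below both DTA- samples, at 44.15 and 39.45 CPM against 48.3 and 45.0 CPM, a difference of -0.17 on the log2 scale that became 0.00 when each cell was thinned to 1000 UMIs and was 0.11 without an upper UMI limit, 0.03 at resolution 1.2 and 0.62 with sites from marker scores. Over all mesenchyme the values were 99.2 and 97.5 CPM in DTA- and 108 and 108 CPM in DTA+ (0.14), an order that 25.4% of all genes had.

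Across the 70 combinations of the 5 genes with 14 sites, 38 passed the filter on low counts. Of those 38, 23 had both DTA+ samples above both DTA- samples, 1 had them below, and 14 overlapped. The order with DTA+ above held for 22.7% of all gene and site pairs tested, and that with DTA+ below for 22.7%. Since the members were chosen on this contrast and pass the filter more readily where they are high, nothing is read from the members' count.

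Counting cells in place of UMIs placed the genes with few UMIs in the same order between genotypes. Neto1 in the Foxl2/Sall3 site was detected in 0.791% and 2.32% of the 253 and 259 DTA- cells and in 28.9% and 17.7% of the 405 and 462 DTA+ cells. The DTA+ cells of that site were the shallower, with median UMIs of 3508 and 3671.5 against 5005 and 3791. After thinning every cell to 1000 UMIs the shares were 0% and 0% against 10.4% and 6.71%. Elavl2 in the corpus cavernosum-like site was found in 1.35% and 1.51% of DTA- cells and 10.9% and 10.3% of DTA+ cells, and after thinning in 0.193% and 0.336% against 5.29% and 3.75%. At least 1 of Neto1, Syt1 and Elavl2 was found in 5.93% and 3.86% of DTA- cells and 45.7% and 24.7% of DTA+ cells of the Foxl2/Sall3 site. Over all mesenchyme these shares were 4.28% and 4.99% against 16.3% and 11.1%, so most ablated mesenchymal cells gave no UMI of the 3 genes at this depth.

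**Figure D2:**
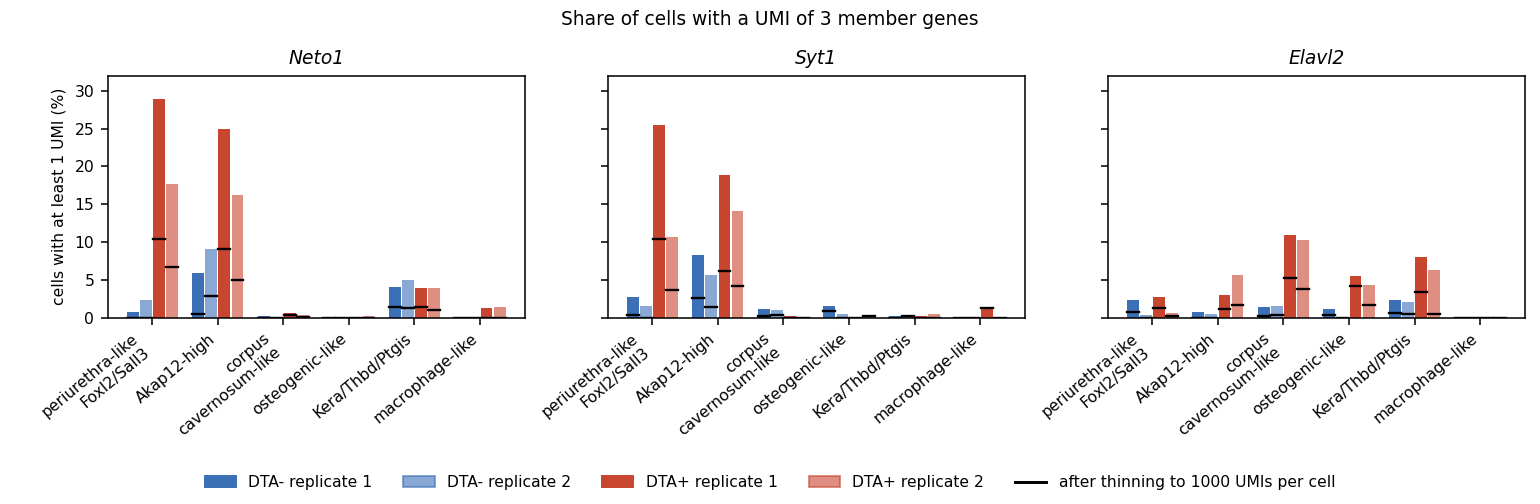
Percent of cells with at least 1 UMI of Neto1, Syt1 or Elavl2 (y axis) in 5 mesenchymal sites and in macrophage-like cells, with bars for each sample (blue DTA-, red DTA+, paler for replicate 2) and black lines for the share after thinning to 1000 UMIs per cell. Neto1 and Syt1 exceed 10% in DTA+ of the Foxl2/Sall3 and Akap12-high sites, and Elavl2 in the corpus cavernosum-like site.

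Free RNA in droplets was gauged in macrophage-like cells, 69 to 78 per sample with median depths of 4443 to 5090.5 UMIs, a blood cell type not known for these transcripts. Elavl2 had no UMI in them, which for 0 of 69 to 78 cells allows a share of up to 4.35% to 3.85%. Neto1 was found in 0% and 0% of macrophage-like cells in DTA- and 1.28% and 1.39% in DTA+, Syt1 in 0% and 0% against 1.28% and 0%, and Gria2 in 0% and 1.33% against 1.28% and 2.78%. The DTA+ shares of Neto1 and Syt1 in the Foxl2/Sall3 site and of Elavl2 in the corpus cavernosum-like site lay above these shares. They also lay above the limits of 3.85% to 4.35% that a count of 0 allows. The DTA- shares of the same genes in the same sites, and the Neto1 and Syt1 shares of DTA+ in the corpus cavernosum-like site, did not lie above those limits. Only red blood cells, epithelium and endothelium had been planned as background, and macrophage-like cells had not. In epithelium-like cells Elavl2 was at 10.66 and 18.2 CPM in DTA- and 14.72 and 20.5 CPM in DTA+. Syt1 was at 15.99 and 24.26 CPM against 18.41 and 20.5 CPM. Both overlapped under the filter, from 4 to 10 UMIs per sample. Elavl2 of DTA+ in osteogenic-like and Akap12-high mesenchyme came near the epithelium values. In the corpus cavernosum-like and Kera/Thbd/Ptgis sites it lay above them. In endothelium-like cells Elavl2 was at 7.184 and 5.289 CPM against 9.4 and 0 CPM. Red blood cell-like clusters held a Col1a1 UMI, a transcript of mesenchyme, in 88.1% to 95.3% of their cells. In these cells Neto1 was at 0 and 2.19 CPM in DTA- and 24.2 and 17.4 CPM in DTA+, from 0 and 2 UMIs against 17 and 5. The genotype order of Neto1 was thus seen there as well. Over all mesenchyme Neto1 was at 3.45 and 8.18 CPM against 29.55 and 16.8 CPM, which the red blood cell-like values of DTA+ came near. How much of any of these backgrounds is free RNA was not tested. Intervals and limits of this kind cover counting error only.

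Akap12-high mesenchyme was made of 3 clusters whose cells came unevenly from the genotypes, and the values given for that site above move with this makeup. Its name is that of a gene and not of a cell type. Akap12 was among the 10 leading genes of clusters 13 and 14 and not of cluster 6. The leading genes of cluster 6 included Gria2 and Syt1 themselves and the neuron marker Stmn2. Its enriched markers held Akap12, but also Sostdc1 and Wnt16, which name another site, and the periurethral Foxl2 and Foxf2. That other site had 499 and 936 cells in DTA- and 283 and 337 in DTA+. Whether cells of one kind were split between these sites by genotype was not tested. The leading genes of cluster 13 also held Ly6a and Sema3c, markers of subdermal prepuce. The clusters are therefore also given by number. Cluster 6 had 98 and 73 cells in DTA- and 957 and 682 in DTA+, cluster 13 had 242 and 797 against 21 and 8, and cluster 14 had 85 and 8 against 279 and 634. Within cluster 6 alone, Neto1 was at 6.31 and 20.3 CPM in DTA- (3 and 5 UMIs) and at 84.3 and 70.5 CPM in DTA+. Syt1 was at 56.8 and 60.8 CPM against 83.6 and 89.1 CPM. The genotypes were apart for both, with log2 ratios of the means of 2.54 and 0.55. Gria2 in cluster 6 was at 789 and 839 CPM against 864 and 867 CPM, a log2 ratio of 0.09 where the whole site gave 0.65. Gap43 overlapped there, at 515 and 316 CPM against 296 and 436 CPM, with a log2 ratio of -0.18 where the whole site gave 0.98. In cluster 14, with 8 cells in DTA- replicate 2, the log2 ratios were 5.99 for Neto1, 1.11 for Syt1, 0.51 for Gria2 and 1.59 for Gap43. Elavl2 was highest in cluster 14, at 0 and 0 CPM in DTA- and 39.1 and 37.4 CPM in DTA+. With clusters formed at resolution 0.4, Gria2, Syt1 and Gap43 in the site that carried the Akap12 name were at log2 fold changes of -0.48, -2.11 and -0.38.

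**Figure D3:**
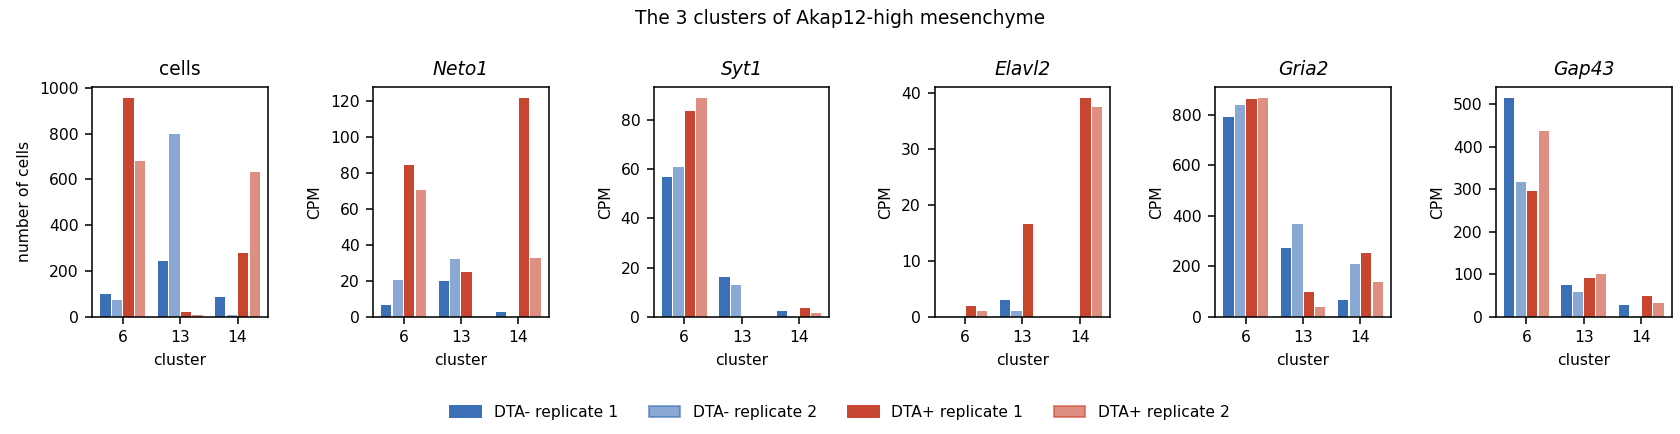
The 3 clusters merged as Akap12-high mesenchyme (x axis), with the number of cells in the left panel and the CPM of each member in the others, 1 bar per sample (blue DTA-, red DTA+, paler for replicate 2). Cluster 13 is mostly DTA- and clusters 6 and 14 mostly DTA+, while Gria2 and Gap43 are high in cluster 6 in all 4 samples.

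The members were seen in the same cells to different degrees, which is given as a description since cells of 1 sample are not replicates. Over all DTA+ mesenchyme, thinned to 1000 UMIs per cell, Gria2 was found in 38.3% and 37.6% of cells with a Syt1 UMI and in 11.5% and 8.16% of cells without one. The same held in controls, with 10 of 37 Syt1 cells of replicate 1 and 44.4% of those of replicate 2 against 4.49% and 9.85% of the rest. For Neto1 the Gria2 shares were 27.1% and 29.2% against 11.8% and 8.21% in DTA+, but these pool sites in which both genes are high or low. Within Akap12-high mesenchyme the thinned Gria2 shares were 38.6% of Neto1 cells against 42.2% of the rest in DTA+ replicate 1 and 40.9% against 31.3% in DTA+ replicate 2. Within the Foxl2/Sall3 site they were 9.52% against 11.8% and 16.1% against 4.87%, so the replicates differed in order in both sites. The Gria2 shares of Syt1 cells were above those of the rest in both DTA+ replicates in both sites, with 52.6% and 51.8% against 41.1% and 30.9% in Akap12-high mesenchyme. That site pools clusters in which both genes are high or low. In DTA+, Syt1 was at 83.6 and 89.1 CPM in cluster 6 and 3.55 and 1.72 CPM in cluster 14. Gria2 was at 864 and 867 CPM against 253 and 139 CPM. Shares within single clusters were not computed, so this gap is not read as one among cells of 1 kind. Elavl2 did not go with Syt1: with all UMIs counted, it was found in 1.83% and 0% of the 492 and 361 Syt1 cells of DTA+ and in 3.85% and 3.47% of the others. Among DTA+ cells of the Foxl2/Sall3 site, Syt1 was found in 41 of 117 and 18 of 82 Neto1 cells and in 21.5% and 8.16% of the rest with all UMIs. Thinned, it was found in 4 of 42 and 5 of 31 Neto1 cells and in 10.5% and 2.78% of the rest, so that the order in replicate 1 depended on depth.

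The levels were also compared over sites. Across the 56 sums of 14 sites in 4 samples, which share libraries and depth, the Pearson correlation of log2(CPM + 1) was 0.71 between Neto1 and Gria2, 0.72 between Gria2 and Gap43, 0.65 between Neto1 and Syt1, 0.03 between Elavl2 and Neto1, and -0.53 between Elavl2 and Gap43. Of the 8696 genes compared, each averaging 10 CPM or more, those like Neto1 included Fstl1 (0.84), a secreted glycoprotein, and Slc26a7 (0.80), an anion transporter. Syt1 was most like Cfl2 (0.81), Mrc2 (0.79) and Meis2 (0.78), and Gria2 most like Epb41l2 (0.88), Meis1 (0.86) and Adamts2 (0.85). Gap43 went with Shox2 (0.83), Pax3 (0.82) and Gm14226 (0.82), and Elavl2, less closely, with Smarca1 (0.74), Zfp68 (0.71) and Avl9 (0.71). With 5 CPM added in place of 1, 8 of the 15 genes that ranked in the first 3 of a member still did so.

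Within the DTA+ libraries, cells with and without a tdTomato UMI were set side by side. The study describes leaky tdTomato transcript at a low level in most cells and sets a count cutoff for labelled cells. The highest count in a cell was 3 and 3 UMIs in the Foxl2/Sall3 site and 6 and 3 in the corpus cavernosum-like site. No cell of these sites reached that cutoff, so the split is not one by lineage. Other sites did hold cells above it, with highest counts of 18 and 12 UMIs in Irx1/Col7a1 mesenchyme. In DTA+ replicate 1 the highest count was 15 in Akap12-high and 12 in distal glans-like Tac1/Tfap2c mesenchyme. By that cutoff some labelled cells were left in the DTA+ samples. Neto1 of the Foxl2/Sall3 site was at 145 and 127 CPM in cells with a tdTomato UMI and at 129 and 62.7 CPM in cells without one. Syt1 was at 112 and 44.0 CPM against 120 and 46.2 CPM. Elavl2 in the corpus cavernosum-like site was at 52.6 and 61.7 CPM against 40.5 and 32.2 CPM. A tdTomato UMI was also found in 15.4% and 19.4% of macrophage-like cells, so a tdTomato UMI was not limited to mesenchyme.

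Relatives of the members were tested between genotypes with edgeR's quasi-likelihood test and Benjamini-Hochberg adjustment within a site. The choice of members did not use these genes, but the lists that hold them were made with earlier results of these data known. The p-values here and below carry that limit. The other AMPA receptor subunits passed the test in few sites, Gria4 and Gria3 on the lower side and Gria1 on the higher. Gria4 fell in the Foxl2/Sall3 site, where Gria2 was higher in DTA+: it was at 67.2 and 97.1 CPM in DTA- and 28.97 and 16.01 CPM in DTA+. Its log2 fold change was -1.88 (SE 0.292, edgeR adjusted p = 0.0031), with no overlap. This call was lost without DTA- replicate 1 (edgeR adjusted p = 0.0782) and without DTA- replicate 2 (0.216). In the second periurethra-like site, marked by Hhip and Gli1, Gria4 fell from 16.6 and 23.1 CPM to 1.70 and 1.95 CPM (log2 fold change -3.32, SE 0.602, edgeR adjusted p = 0.000203), a call kept with each sample left out. Osteogenic-like mesenchyme had 43.2 and 47.0 CPM against 22.99 and 15.7 CPM (-1.30, edgeR adjusted p = 0.00189, and 0.302 without DTA+ replicate 2). The other 10 sites with a test of Gria4 had no call.

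Gria3 fell in 2 of 14 sites. In Akap12-high mesenchyme it was at 90.4 and 127 CPM in DTA- and 47.4 and 36.4 CPM in DTA+ (log2 fold change -1.39, edgeR adjusted p = 0.0157), with the uneven clusters named above, and without DTA+ replicate 1 or 2 the adjusted p was 0.0521 or 0.122. In Kera/Thbd/Ptgis mesenchyme it was at 27.01 and 37.4 CPM against 16.7 and 17.5 CPM (-0.90, edgeR adjusted p = 0.026), and leaving out DTA- replicate 2, DTA+ replicate 1 or DTA+ replicate 2 ended the call (0.0715, 0.171 and 0.0937). Gria1 rose in 1 of 6 sites, the Kera/Thbd/Ptgis mesenchyme, from 1.63 and 1.53 CPM to 5.72 and 15.3 CPM (2.71, edgeR adjusted p = 0.00273, and 0.271 without DTA+ replicate 2). Whether the fold of any of the 3 genes differed from that of Gria2 was not tested.

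**Figure D4:**
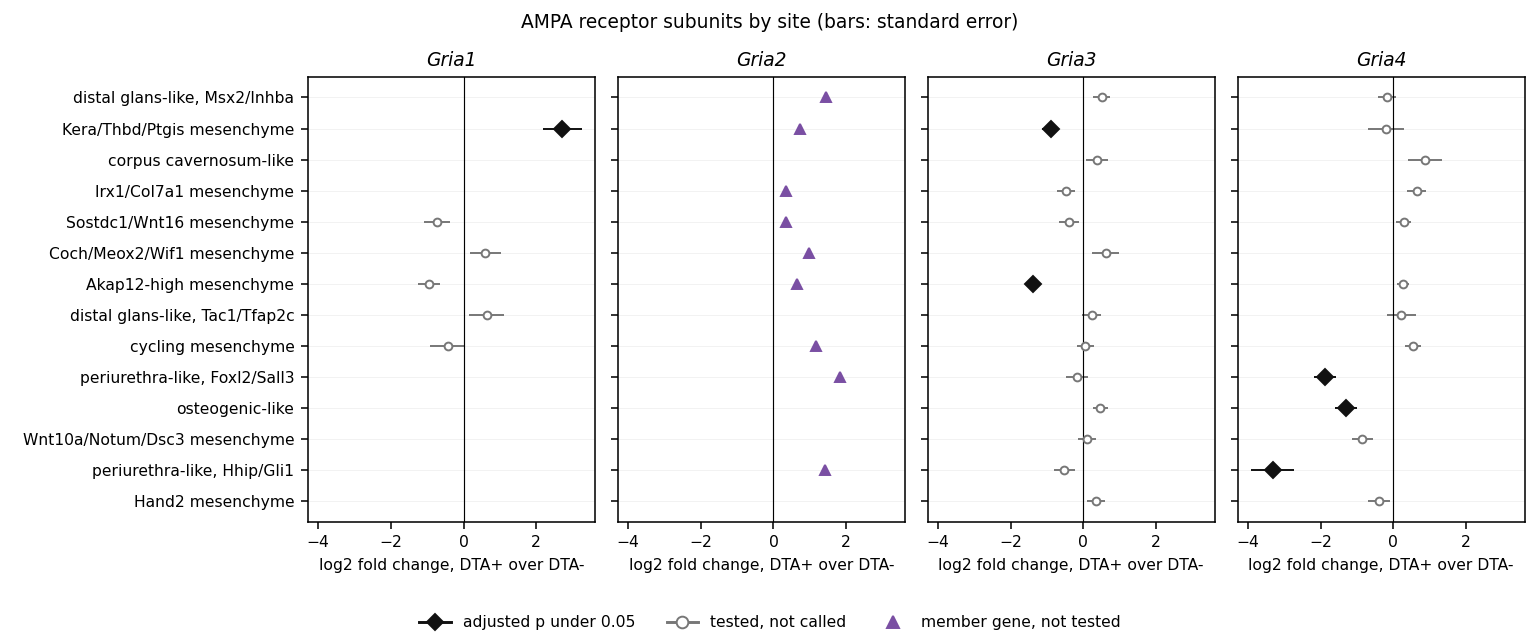
Log2 fold change (DTA+ over DTA-, x axis) of the 4 AMPA receptor subunit genes in each site with enough counts, with bars for the standard error. Black diamonds mark an edgeR adjusted p under 0.05, open circles tested sites without a call, and purple triangles the member Gria2, which was not tested. All Gria2 triangles lie right of 0, while the called Gria4 and Gria3 points lie left of it.

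The closest relative of Neto1, Neto2, which also assists kainate receptors, was tested in 9 sites with 0 calls by edgeR's quasi-likelihood test and by DESeq2 and 1 call, higher, by edgeR's likelihood ratio test, and with 4 sites higher at an unadjusted p under 0.05. Neto2 in the Foxl2/Sall3 site had 10.6 and 10.2 CPM in DTA- and 22.1 and 21.2 CPM in DTA+ (log2 fold change 1.04, edgeR adjusted p = 0.118). In simulated counts of that site, the test recovered 45.8% of genes with a true log2 fold change of 1 in either direction. A missing call here and below is therefore not read as no change. The 7 other synaptotagmins with a test, 33 gene and site pairs, had 0 calls by each of the 3 tools and 1 pair at an unadjusted p under 0.05. Elavl1, the Elav member used in most tissues, and Basp1, Marcks and Marcksl1, membrane proteins that resemble Gap43 in function, had 0 calls in 56 pairs by each of the 3 tools, with 8 pairs at an unadjusted p under 0.05. Their log2 fold changes lay between -0.53 and 0.44. Elavl3, a neuronal Elav gene, stayed at or under 0.302 CPM over all mesenchyme in each sample.

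Lists of genes around the members were counted over the 14 sites with the same edgeR test, beside all 139664 gene and site pairs tested, of which 1.86% were called higher and 1.96% lower in DTA+ at a median log2 fold change of 0.001. Synaptotagmins and vesicle fusion genes had 1 call among 229 pairs (0.437%, median 0.014), that of the vesicle protein gene Sv2c, higher in Kera/Thbd/Ptgis mesenchyme (edgeR adjusted p = 0.0108, and 0.0735 without DTA+ replicate 2). By DESeq2 this call was lost (adjusted p = 0.12) and Rab3c, a vesicle GTPase named here after its value was seen, was lower in Akap12-high mesenchyme (DESeq2 adjusted p = 0.00789). Neuronal RNA-binding proteins had 4 higher and 3 lower of 169 (2.37% and 1.78%, median 0.051). For glutamate receptors and auxiliary proteins 10 of 255 pairs were higher and 11 lower (3.92% and 4.31%, median 0.13). Growth cone and cytoskeleton genes had 11 higher and 31 lower of 225 pairs (4.89% and 13.8%, median -0.17). The REST repressor complex had 1 call, lower, in 182 pairs (0.549%, median 0.102). That call was Hdac1 in the corpus cavernosum-like site (log2 fold change -0.74, lost without either DTA+ sample). At an unadjusted edgeR p under 0.05, 8 pairs of this list were higher and 3 lower. The calls of the glutamate, RNA-binding and growth cone lists thus ran in both directions. Within single sites, the share of all tested genes called lower was 2.12% in the Foxl2/Sall3, 2.4% in the Hhip/Gli1, 2.15% in the osteogenic-like, 2.17% in the Akap12-high, 3.59% in the Kera/Thbd/Ptgis, 3.49% in the corpus cavernosum-like and 0.403% in the Irx1/Col7a1 site. The share called higher was 3.38% in the osteogenic-like, 1.53% in the Akap12-high, 3.16% in the Kera/Thbd/Ptgis, 3.41% in the corpus cavernosum-like, 0.768% in the Hand2 and 4.79% in the Coch/Meox2/Wif1 site. In the Sostdc1/Wnt16 site 1.04% were called lower, and in the Hhip/Gli1 site 1.84% were called higher.

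**Figure D5:**
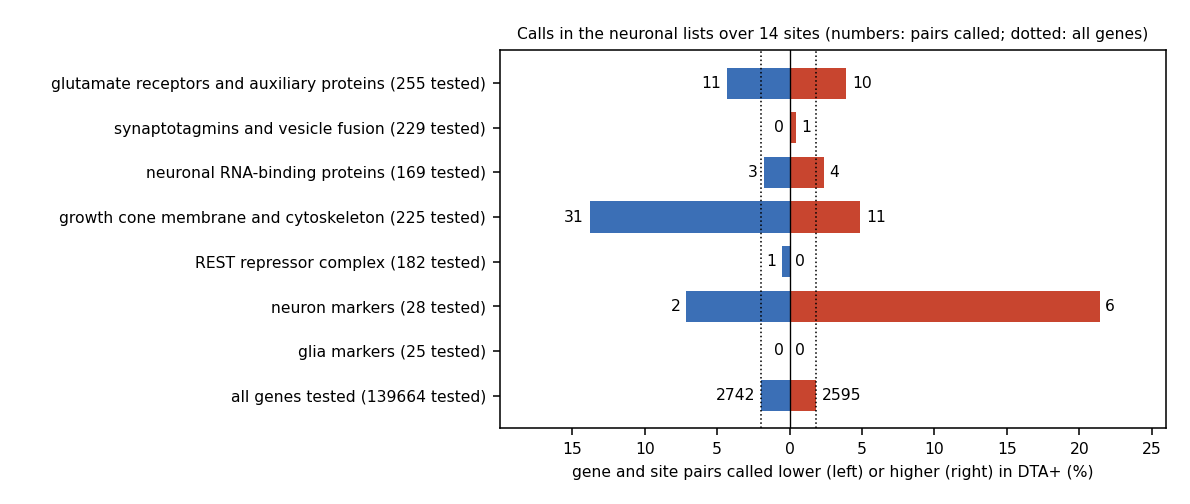
Percent of gene and site pairs called lower (left, blue) or higher (right, red) in DTA+ for each list, with the number of called pairs at the bar ends and dotted lines at the shares over all genes. Growth cone genes extend farthest to the lower side, with 31 of 225 pairs, and neuron markers to the higher side, with 6 of 28. Those 6 pairs are also counted in the growth cone list, since Nefl, Nefm and Stmn2 are in both.

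Most of the lower calls in the growth cone list were Map1b, a microtubule-associated protein of growing axons, and Tuba1a, an alpha-tubulin. Map1b fell in 11 of 14 sites. Its level in the Foxl2/Sall3 site was 544 and 653 CPM in DTA- and 97.95 and 75.5 CPM in DTA+ (log2 fold change -2.79, edgeR adjusted p = 6.72e-06), while Gap43 there hardly differed. In the Hhip/Gli1 site Map1b went from 376.5 and 515 CPM to 84.9 and 47.3 CPM (edgeR adjusted p = 7.26e-12). The calls in Akap12-high, cycling and Hand2 mesenchyme were lost when single samples were left out, and the other 8 were kept. Tuba1a fell in 7 sites, among them Kera/Thbd/Ptgis mesenchyme from 571 and 754 CPM to 288 and 343 CPM (-1.07, edgeR adjusted p = 9.58e-05). That call and those in Sostdc1/Wnt16 and distal glans-like Tac1/Tfap2c mesenchyme were kept with each sample left out, while the one in the Foxl2/Sall3 site had an adjusted p of 0.0738 without DTA- replicate 1 and 0.131 without DTA- replicate 2 (edgeR).

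Other glutamate receptor genes were also called, in part at sites where members differed, such as Kera/Thbd/Ptgis and Hand2 mesenchyme. Grin3a, an NMDA receptor subunit, rose in Kera/Thbd/Ptgis mesenchyme from 11.4 and 9.93 CPM to 33.9 and 24.97 CPM (log2 fold change 1.45, edgeR adjusted p = 0.00129), a call kept with each sample left out. In Hand2 mesenchyme Grin3a rose from 39.5 and 17.98 CPM to 83.3 and 83.9 CPM (1.61, edgeR adjusted p = 0.00844, and 0.0793 without DTA- replicate 2). Grik2, a kainate receptor subunit of the kind that Neto1 assists, rose in Kera/Thbd/Ptgis mesenchyme from 4.23 and 2.67 CPM to 14.3 and 12.3 CPM (1.91, edgeR adjusted p = 0.00311). That call was kept with each sample left out. It was lost by DESeq2 (adjusted p = 0.0795) and with sites from marker scores (edgeR adjusted p = 0.15). Grik2 was also called higher in the corpus cavernosum-like site (6.68, edgeR adjusted p = 0.00523), where DESeq2 gave no adjusted p. It had too few UMIs there for a test without DTA+ replicate 1 and after thinning. The same held with genotype genes left out of the clustering and with sites from marker scores. Nothing is read from this call. The higher call of Grik2 in the Hhip/Gli1 site (3.16, edgeR adjusted p = 0.00777) was lost by DESeq2 (adjusted p = 0.213). It was also lost, or could not be tested, with any sample left out. Olfm2, a secreted olfactomedin that associates with AMPA receptors, fell in Irx1/Col7a1 mesenchyme from 23.3 and 29.0 CPM to 6.91 and 2.58 CPM (-2.27, edgeR adjusted p = 0.00467, and 0.0523 without DTA- replicate 2). Olfm2 was also called lower in Akap12-high and Kera/Thbd/Ptgis mesenchyme (-2.20 and -1.70, edgeR adjusted p = 0.0188 and 0.0305). Each of these calls held in only some of the fits without a sample. DESeq2 kept that in Akap12-high mesenchyme, with its uneven clusters, and lost the other (adjusted p = 0.00112 and 0.332). Among RNA-binding proteins, Celf2 rose in Coch/Meox2/Wif1 mesenchyme from 127.5 and 125 CPM to 253 and 255.5 CPM (1.01, edgeR adjusted p = 9.51e-05) and Msi2 in osteogenic-like mesenchyme from 78.0 and 103 CPM to 172 and 171 CPM (0.96, edgeR adjusted p = 0.000183), both kept with each sample left out. Khdrbs3 gave all 3 lower calls of that list. Its log2 fold changes were -1.18 in Irx1/Col7a1, -1.28 in Sostdc1/Wnt16 and -1.15 in Akap12-high mesenchyme (edgeR adjusted p = 0.0479, 0.0196 and 0.0325). None was kept in each fit without a sample, and DESeq2 kept only the last.

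Markers of neurons and glia were counted in the same cells. Of the 18 neuron markers 2 were at 0 in all mesenchyme, among them Th, the first enzyme of catecholamine synthesis. The markers' part in the members' levels was not tested beyond the values given here. The summed neuron markers were 46.4 and 60.25 CPM in DTA- and 101 and 107 CPM in DTA+ over all mesenchyme, with DTA+ above, and the 12 glia markers 31.4 and 28.85 CPM against 31.2 and 34.5 CPM, which overlap. In the Foxl2/Sall3 site the neuron sum was 25.4 and 39.85 CPM against 97.95 and 14.3 CPM, which overlap. Its genes differed in direction. Nefl, at 0 and 1.02 CPM against 34.5 and 4.57 CPM, had DTA+ above. So did Nefm, at 0.819 and 1.02 CPM against 33.1 and 1.72 CPM, and Syp, all under the filter. Tubb3, Prph and Dbh had DTA+ below, and Stmn2 and Uchl1 overlapped. Prph and Dbh were under the filter too, with 1 and 1 UMIs against 0 and 1 for Prph and 6 and 4 against 0 and 0 for Dbh. In the corpus cavernosum-like site the neuron sum was 10.2 and 6.04 CPM against 17.2 and 8.87 CPM, again overlapping. In other sites the neuron sum was above in both DTA+ samples, as some members were, with 77.5 and 77.8 CPM against 204 and 254 CPM in Akap12-high, 65.7 and 152 CPM against 257 and 282 CPM in Kera/Thbd/Ptgis, and 28.2 and 31.9 CPM against 71.5 and 56.9 CPM in cycling mesenchyme. Coch/Meox2/Wif1 and Wnt10a/Notum/Dsc3 mesenchyme had the same order, and in Kera/Thbd/Ptgis, Akap12-high, distal glans-like Tac1/Tfap2c and osteogenic-like mesenchyme the glia sum had it too, with 16.03 and 12.1 CPM against 31.1 and 25.1 CPM in the last. The neuron sum had both DTA+ samples below in distal glans-like Msx2/Inhba mesenchyme, at 150.2 and 168.5 CPM against 95.0 and 139.8 CPM. So did the glia sum in Irx1/Col7a1 mesenchyme, at 46.7 and 50.55 CPM against 36.6 and 29.0 CPM. Among 28 neuron marker pairs tested, 6 rose and 2 fell, and those that rose were Nefl, Nefm and Stmn2. These genes and Tubb3 are in the growth cone list too. The 6 higher calls are thus also among the 11 higher calls of that list and are no separate result. The 2 that fell, Tubb3 in the Foxl2/Sall3 site and Uchl1 in Akap12-high mesenchyme, were lost in at least 3 of the 4 fits without a sample, or could not be tested there. Nefl, a neurofilament, rose in Kera/Thbd/Ptgis mesenchyme from 34.8 and 77.9 CPM to 140 and 157 CPM (log2 fold change 1.41, edgeR adjusted p = 0.000625, and 0.247 by DESeq2). Stmn2, a regulator of axonal microtubules, rose in Akap12-high mesenchyme from 20.8 and 18.6 CPM to 123 and 118 CPM (2.62, edgeR adjusted p = 0.0006), with the uneven clusters of that site, and was at -0.21 in the site so named at resolution 0.4. The 25 glia marker pairs had 0 calls by edgeR's quasi-likelihood test, its likelihood ratio test and DESeq2, and 5 at an unadjusted p under 0.05. With every cell that held a UMI of any listed neuron or glia marker left out, the log2 fold changes in the Foxl2/Sall3 site were 4.71 for Neto1, 3.76 for Syt1 and 2.13 for Gria2, and that of Elavl2 in the corpus cavernosum-like site was 3.34.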

How the data were processed

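The authors made 10x Genomics 3' libraries of E16.5 male genitalia, pooled them on 1 flow cell and aligned reads to mm10 with reporter sequences added. The submitters' processing notes name Cell Ranger 4.0.0. The deposited values are raw UMI counts per gene and cell. Cells were kept between 1000 and 7500 UMIs, with mitochondrial transcripts at or under 25%, alpha-globin at or under 25% and beta-globin at or under 50%. They were clustered (Seurat 5.3.0, R 4.3.3) on 2000 variable genes which excluded the members and listed genes (30 principal components, resolution 0.8). Names rest on marker lists. Genes that lead a cluster named the rest. Scrublet called 2 cells, so doublets were kept. Library totals were 73577028, 53654435, 50794318 and 50779551 UMIs.

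Counts were summed per site and sample over mesenchymal cells with no Sox10 or Elavl4 UMI and tested for genotype in edgeR 4.0.16 by its quasi-likelihood test after TMM scaling and filterByExpr, with Benjamini-Hochberg adjustment within a site and calls at an adjusted p under 0.05. With samples not stated to be single embryos, p-values measure the spread between these samples. The test was tried first on simulated counts with known changes. At a true log2 fold change of 1 in either direction, it recovered 45.8% of changed genes in the Foxl2/Sall3 site. The shares were 53.5% in the Akap12-high and 70.7% in the corpus cavernosum-like site. At 2 in either direction they were 98.9%, 92.8% and 96.9%. The members and lists were chosen with earlier results of these data known. Named genes were the members, their listed relatives, up to 5 genes per list called in the most sites, and 3 genes per member with the most similar pattern. Some genes that this rule names are not reported here. DESeq2 1.42.0 and other settings were alternatives. Promoters were matched by symbol in RefSeq (GRCm38.p6) and positions in GENCODE. The remaining steps used Python 3.11.15, numpy 2.4.6, scipy 1.17.1, pandas 2.3.3 and scanpy 1.11.5, with figures by matplotlib 3.10.9. Replicate numbers were not treated as pairs: same-numbered samples had a correlation of deviations of -0.34 over all mesenchyme.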

Additional observations from a re-analysis of the deposited data

Results flagged for a closer look

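Gap43 lay lower in both DTA+ samples than in both DTA- samples in the Foxl2/Sall3 periurethra-like site (log2 fold change -0.17) and higher in Irx1/Col7a1, Akap12-high and cycling mesenchyme. The difference between the sites was not tested. Dpysl3, a cytoskeletal protein of growing axons, was called higher in the corpus cavernosum-like site (log2 fold change 0.64) and lower in the Foxl2/Sall3 and Hhip/Gli1 sites (-0.84 and -0.95, the calls being lost in 3 and 2 of the 4 fits without a sample, and that in the corpus cavernosum-like site without DTA+ replicate 2), with all samples of a genotype on 1 side of the other in each. This difference between sites was not tested either. The reporter tdTomato, which no comparison between genotypes used, was found in 21.9% and 21.2% of the mesenchymal cells of DTA+ replicates 1 and 2, in 15.4% and 19.4% of their macrophage-like cells, and in no cell of the DTA- libraries.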

How the results depend on the processing

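With 2 samples per genotype, few UMIs limit the members: control levels of Neto1, Syt1 and Elavl2 rest on under 10 UMIs in several sites, and small differences were not detectable. Of 712 member values under other settings, 623 differed from the reported one by less than 1 SD between replicates. The sign changed in 53, of which 46 were where the genotypes overlapped, 3 were Gap43 in the Foxl2/Sall3 site and 4 were where DTA+ had been above. By gene these were 38 of Gap43, 8 of Neto1, 4 of Syt1, 3 of Gria2 and 0 of Elavl2. For listed genes, 778 of 963 values kept their call, 183 lost it and 2 turned. The log2 fold changes that turned where genotypes had been apart or a gene was called were these. At resolution 0.4, Akap12-high mesenchyme gave Gria2 -0.48, Syt1 -2.11, Gap43 -0.38 and Stmn2 -0.21. Cluster 6 alone gave Gap43 -0.18, and sites from marker scores gave Dpysl3 0.07 in the Hhip/Gli1 site. The Elavl2 share ratio was 3.89, and 6.58 when thinned. Of the 15 genes most similar to members, 8 were shared with 5 CPM added. Causes were not tested.

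As reported, 19 member pairs had a log2 fold change of at least 1, 23 pairs did not overlap with DTA+ above, and 5337 gene and site pairs were called, with 21 in the glutamate, 1 in the vesicle, 7 in the RNA-binding, 42 in the growth cone, 1 in the REST, 8 in the neuron and 0 in the glia list. Without the filter on low counts, the counts were 32 member pairs, 32 glutamate, 5 vesicle, 0 REST, 19 neuron and 2 glia. DESeq2 called 2261 pairs, with 10 glutamate, 4 RNA-binding and 2 neuron, and the likelihood ratio test 34 glutamate, 4 vesicle and 3 REST. Thinning to 1000 UMIs gave 11 member pairs, 1706 calls, 6 glutamate, 0 vesicle, 1 RNA-binding, 27 growth cone, 0 REST and 4 neuron. Leaving out cells with a neuron or glia marker gave 0 neuron calls, which the step itself fixed, since no UMI of these markers remained. With no upper UMI limit there were 6 vesicle and 11 RNA-binding calls. Resolution 0.4 gave 4 vesicle and 2 REST, resolution 1.2 gave 3 vesicle and 2 REST, and leaving genotype genes out of the clustering or the highest Scrublet scores out gave 2 vesicle each. Sites from marker scores gave 30 member pairs, 41 without overlap, 2933 calls, 7 glutamate, 3 RNA-binding and 0 REST. Settings that lack a site give no value there.

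With single samples left out, and the lone sample assumed to vary like the others, calls ran from 3063 without DTA+ replicate 1 to 7871 without DTA- replicate 2. The lists ran from 12 to 25 for glutamate, 0 to 5 for vesicle, 3 to 11 for RNA-binding, 34 to 53 for growth cone, 0 to 6 for REST, 6 to 9 for neuron and 0 to 3 for glia. Member pairs ran from 20 to 21. Those without overlap ran from 28 to 30, but with a sample gone fewer values have to be in order. Nothing is read from that count. Of 55 named calls, 19 held in each. The replicate block gave 5689 calls, with 3 vesicle, 0 REST and 1 glia. Same-numbered samples did not deviate together, so the numbers were not used as pairs. The crossed pairing gave 9607 calls, with 34 glutamate, 2 vesicle, 12 RNA-binding, 4 REST and 1 glia, and was chosen after seeing the data, as was cluster 6 alone.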
